A study of Rattus norvegicus with 5 samples.

Results

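The probes described here read transcripts of the beta-adrenergic and cAMP signalling machinery in the rat parotid gland, the salivary gland beside the ear. They were chosen by gene symbol, from the receptors (Adrb) and their kinases and arrestins (Grk, Arrb) through G protein subunits (Gnas, Gnai, Gnb, Gng), RGS proteins, adenylyl cyclases (Adcy), protein kinase A (Prkac, Prkar), anchoring proteins (Akap), Rapgef exchange factors, phosphodiesterases (Pde) and CREB coactivators (Crtc). A probe also had to be above background, with a detection p-value under 0.01, on at least 1 array. Of 105 probes with such a symbol (99 genes), 61 probes for 60 genes met this and 44 did not, among 10793 probes above background in the series, which name 7627 genes. Glands came from 5 male Sprague-Dawley rats aged 2 to 3 months, of which 2 received normal saline (the controls) and 3 received isoproterenol, a beta-adrenergic agonist, by intraperitoneal injection. The isoproterenol rats were killed at 10, 30 or 60 min, with 1 rat and 1 Illumina bead array at each time. The dose is labelled as 20 mg per g body weight, a unit that is in doubt, and the time from saline to death is not stated in the labels. With 1 rat per time, a difference between isoproterenol and handling, or between individual rats, cannot be told apart.

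In parotid acinar cells a beta-adrenergic receptor activates the stimulatory G protein, which turns on adenylyl cyclase, and the cAMP made activates protein kinase A and triggers the release of amylase. Phosphodiesterases break cAMP down, receptor kinases and arrestins silence the occupied receptor, RGS proteins speed the return of G alpha subunits to their inactive state, and anchoring proteins hold protein kinase A at particular sites. Several components of the pathway are themselves known targets of cAMP, which makes the machinery a place to look for feedback.

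Between 9095 and 9459 probes (40.4% to 42.0%) were above background on each array, and between 51 and 56 of the members. All levels are normalized log2 intensities, and all differences are on that scale, as the rat at 1 time minus the mean of the controls. The arrays differed in tissue makeup as judged by marker genes, which bears on genes that salivary cells share with others. Acinar markers were above background on all arrays (10 of 10) and their median log2 level lay between 14.72 and 15.02, near the 15.32 at which the scale ended. The median of 15 skeletal muscle markers stood at 10.87 in control 1 and 10.86 at 30 min, and at 5.90, 5.97 and 8.14 in control 2 and at 10 and 60 min. Their summed intensity ranged from 1441 to 54617 in the controls and was 1461, 55401 and 6671 at 10, 30 and 60 min. Endothelial and fibroblast markers had a median of 9.60 and 9.65 in the controls and of 7.75, 8.06 and 8.14 at 10, 30 and 60 min. Duct markers had a median of 9.61 and 9.27 in the controls and of 9.23, 8.57 and 8.34 at 10, 30 and 60 min, and 3 of 6 tested were lower at 60 min and none higher. Their summed level was 10163 to 12586 in the controls and 10625, 7408 and 7033 at the 3 times, with the lower values at 30 and 60 min as for Rgs4, Rgs10 and Rapgef3 below, and their part in those values was not tested. In whole glands, fewer cells of a type and less RNA per cell cannot be told apart.

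**Figure D1:**
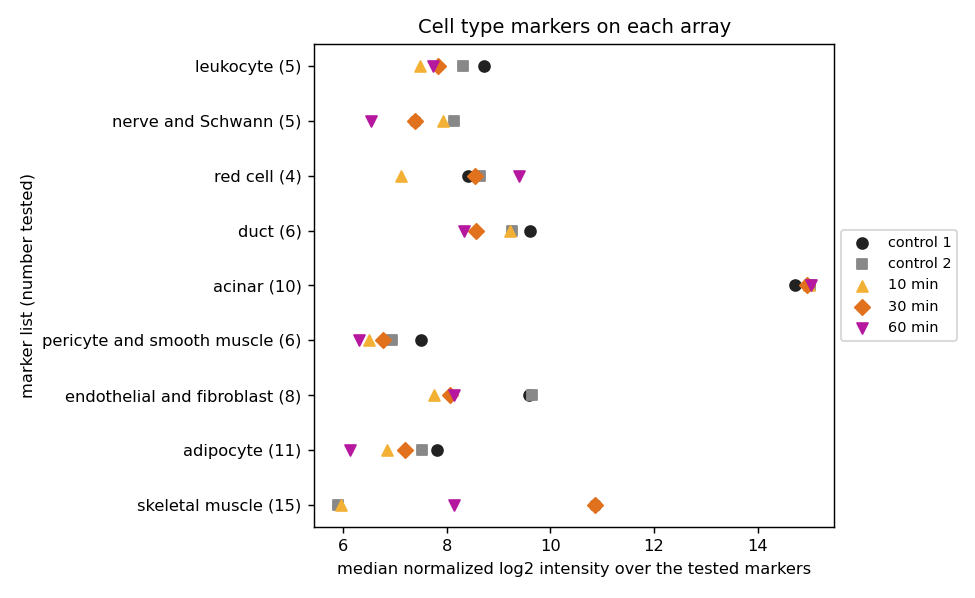
Median normalized log2 intensity (x axis) over the tested marker genes of 9 cell types (y axis, number of genes in brackets) on each of the 5 arrays, with 1 symbol per rat. Skeletal muscle markers were highest in control 1 and at 30 min, and endothelial and fibroblast markers stood lower on the 3 isoproterenol arrays (7.75 to 8.14) than in the controls (9.60 and 9.65).

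At 60 min 16 of the 61 probes differed from the controls, 8 higher and 8 lower. Those that rose were the RGS genes Rgs19, Rgs14 and Rgs2, the G protein subunit genes Gnb3 and Gng10, the phosphodiesterase genes Pde6c and Pde5a, and the receptor gene Adrb3. Those that fell were Rgs4, Rgs3, Rgs10, Gng11, Pde9a, Akap5, Rapgef3 and Grk4. The share of members called, 26.2%, was close to the 24.4% of all tested probes that passed the same limma threshold (adjusted p under 0.05), and so were the shares higher (13.1% against 13.0%) and lower (13.1% against 11.4%). The count is therefore no result about the pathway, and the account below is of its single genes. The median difference over the 60 member genes was -0.14 on the log2 scale, beside -0.08 over all tested probes. An unadjusted p under 0.05 was found for 31 members (50.8%), against 42.0% of all tested probes. Adjusted p-values of the 16 calls lay between 0.0281 and 0.0472 with limma. With dim probes left in, 0 of the members passed (lowest adjusted p = 0.0686 with limma), and 0.0% of all probes did.

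**Figure D2:**
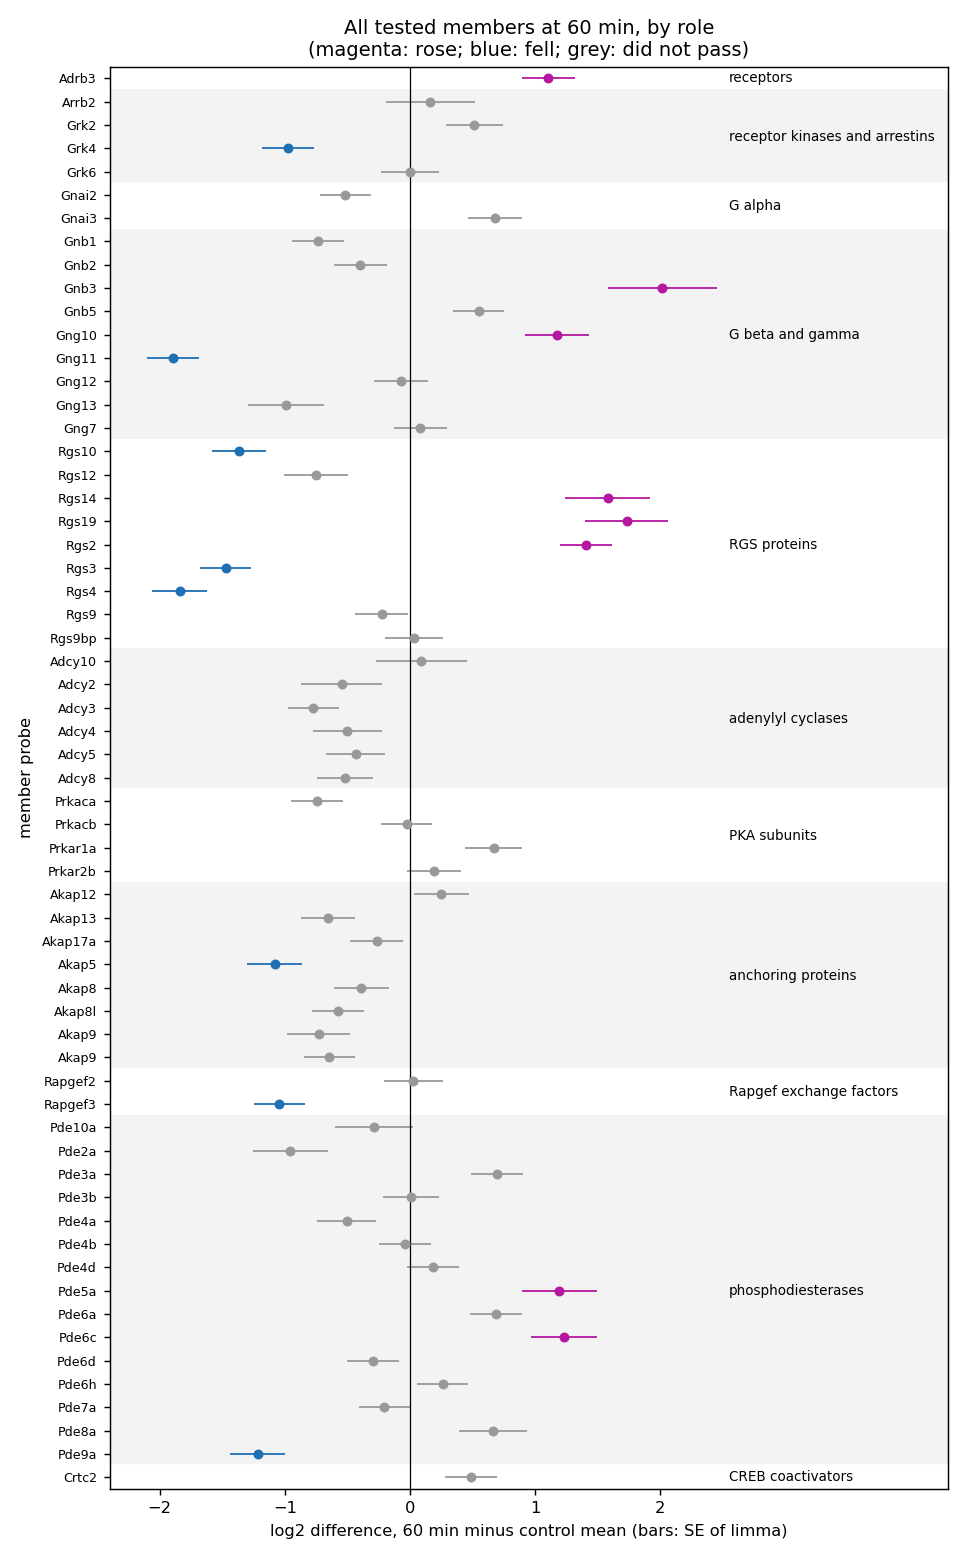
Log2 difference between the 60 min rat and the mean of the 2 controls (x axis) for each of the 61 member probes (y axis), grouped by role, with the SE of limma as bars. Magenta and blue points passed the threshold (8 higher and 8 lower), and grey points did not. Points are fitted values, also for probes not above background on 1 side.

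The 2 controls set how finely these differences can be read. They differed by a median absolute value of 0.18 over the member genes, and by less than 1 for all 61 probes (2.17% of all tested probes were at least 1 apart). All 8 members that rose were higher in control 2 than in control 1, as were 86.7% of all 1403 probes that rose. Of the 8 that fell, 3 were higher in control 2, against 28.8% of the 1231 probes that fell. The part of whatever separates the controls in these rises was not tested. Control 1 and the 30 min rat, which held the most skeletal muscle signal, were the pair of highest arrays in 3 of the 61 members (4.92%, against 4.43% of all tested probes), namely Adcy2, Pde10a and Rgs9bp. The part of muscle content in the values was not tested.

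**Figure D3:**
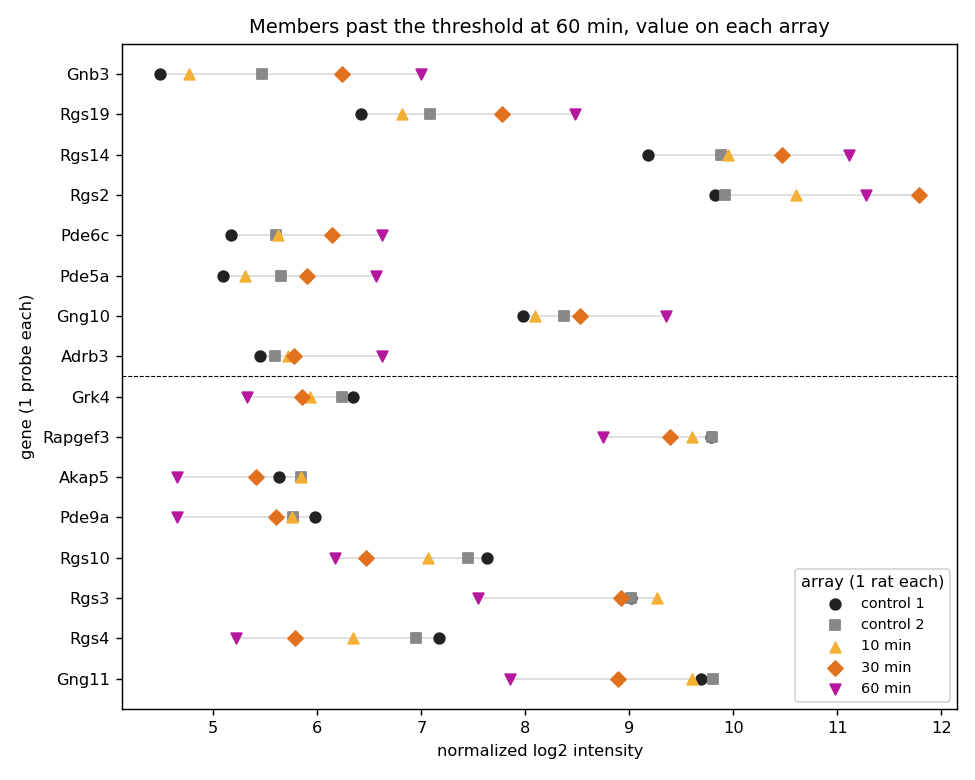
Normalized log2 intensity (x axis) of the 16 members past the threshold at 60 min (y axis) on each array, with 1 symbol per rat. Above the dashed line are the 8 that rose and below it the 8 that fell. In each row the 60 min value lies outside the controls, and Rgs2 alone is highest at 30 min rather than 60 min.

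Of the 9 tested probes of the RGS family, 3 were higher at 60 min and 3 lower, beside 13.0% and 11.4% of all tested probes. Rgs2, whose product limits signalling by Gq and is also known to act on adenylyl cyclase, measured 9.82 and 9.92 in the saline rats, then 10.60, 11.79 and 11.28 at 10, 30 and 60 min. All 3 isoproterenol rats lay above both controls. Its difference was 1.41 ± 0.21 (SE) at 60 min, or 2.65-fold (adjusted p = 0.0285 with limma), from a control mean of 9.87 ± 0.07 (SD, n = 2). At 30 min it was 1.92 higher, the largest difference of any member at that time, without passing (adjusted p = 0.193 with limma). It did pass at 30 min when the prior variance followed intensity (adjusted p = 0.0464 with limma).

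Rgs4, whose product deactivates Gi and Gq, moved the other way. It measured 7.17 and 6.95 in the saline rats, then 6.34, 5.78 and 5.22 at 10, 30 and 60 min. All 3 isoproterenol rats were thus below both controls, and the value was lower at each later time. It fell by 1.84 ± 0.22 (SE) at 60 min, or 3.58-fold (adjusted p = 0.0281 with limma). The difference was -1.08 without background correction and -1.01 in the authors' processed values, both still past the threshold. Of 6 tested pericyte and smooth muscle markers, 3 were lower at 60 min and none higher. Their median was 7.51 and 6.94 in the controls and 6.50, 6.77 and 6.31 at 10, 30 and 60 min. The part of these cells in the Rgs4 values was not tested. Rgs10, a regulator of Gi also abundant in leukocytes, measured 7.63 and 7.45 in the saline rats, then 7.06, 6.47 and 6.17 at 10, 30 and 60 min, and it fell by 1.37 ± 0.22 (SE) at 60 min. Leukocyte markers, of which 2 of 5 tested fell and none rose, had medians of 8.73 and 8.32 in the controls and of 7.48, 7.84 and 7.74 in the isoproterenol rats. Their summed level was 1315 to 1723 in the controls and 861 to 923 in the isoproterenol rats. The part of leukocytes in the Rgs10 value was not tested.

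Rgs3, a further regulator of Gi and Gq, kept its level until the last time. Its controls nearly coincided at 9.01, and its later levels were 9.27, 8.92 and 7.54 at 10, 30 and 60 min. The 60 min rat alone lay far from the others, 1.47 ± 0.20 (SE) below the controls (2.77-fold, adjusted p = 0.0281 with limma).

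Rgs14 and Rgs19 rose. Rgs19, whose product acts on Gi and is found on vesicle membranes, measured 6.42 and 7.08 in the saline rats, then 6.81, 7.78 and 8.48 at 10, 30 and 60 min. The 10 min rat lay between the controls and the later rats above them. The rise at 60 min was 1.73 ± 0.33 (SE), or 3.32-fold (adjusted p = 0.0304 with limma). Rgs14, a scaffold that binds Gi and Rap, measured 9.18 and 9.88 in the saline rats, then 9.95, 10.47 and 11.11 in turn. All 3 isoproterenol rats were above both controls, although the 10 min rat only just, and the rise at 60 min was 1.58 ± 0.34 (SE). Against control 2 alone the 60 min rise was 1.40 for Rgs19 and 1.23 for Rgs14, and against control 1 alone 2.06 and 1.93.

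The remaining RGS probes did not pass. Rgs12 measured 5.97 and 5.58 in the saline rats and was not above background at 60 min. It was there at least 1.58-fold below the control mean, a bound that leaves out the spread of the controls (adjusted p = 0.0910 with limma). Rgs9, known from the retina and striatum, and its membrane anchor gene Rgs9bp were above background on 2 arrays and 1 array. Rgs1, Rgs5, Rgs7, Rgs8, Rgs16, Rgs17, Rgs18 and Rgs20 were not above background on any array.

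**Figure D4:**
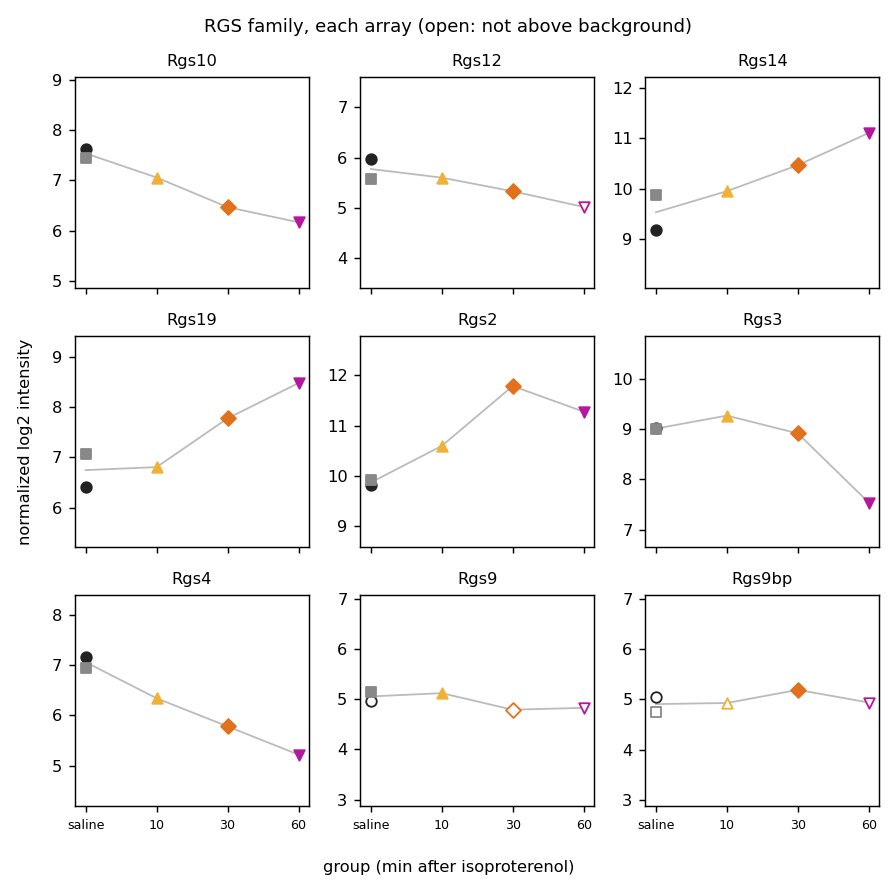
Normalized log2 intensity (y axis) of the 9 tested RGS family probes in the saline rats (circle, control 1, and square, control 2) and at 10, 30 and 60 min (x axis, evenly spaced), with 1 symbol per rat and open symbols where the probe was not above background. The grey line joins the control mean to the isoproterenol rats. Rgs14 and Rgs19 are highest at 60 min and Rgs2 at 30 min, while Rgs3, Rgs4 and Rgs10 are lowest at 60 min.

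Promoters are shown for Rgs2, Rgs3 and Rgs4. Among members called at 60 min for which a promoter was found, these held a short cAMP response element. CREB binds the palindrome TGACGTCA and, less tightly, the short elements TGACG and CGTCA, which are each other's reverse complement. Windows of 300 bases around the RefSeq gene start (GRCr8) were searched on both strands, and a palindrome holds 2 overlapping short elements. Capitals mark the short element in each sequence, which runs from 250 bases before the start to 50 after it.
Rgs2, chr13:58352617-58352916, minus strand: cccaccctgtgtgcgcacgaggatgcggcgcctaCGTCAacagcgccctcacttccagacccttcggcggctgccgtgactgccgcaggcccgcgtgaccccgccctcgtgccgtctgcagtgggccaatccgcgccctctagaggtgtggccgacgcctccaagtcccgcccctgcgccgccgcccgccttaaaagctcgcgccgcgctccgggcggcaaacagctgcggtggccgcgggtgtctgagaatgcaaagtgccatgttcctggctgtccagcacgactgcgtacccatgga
Rgs3, chr5:81093801-81094100, plus strand: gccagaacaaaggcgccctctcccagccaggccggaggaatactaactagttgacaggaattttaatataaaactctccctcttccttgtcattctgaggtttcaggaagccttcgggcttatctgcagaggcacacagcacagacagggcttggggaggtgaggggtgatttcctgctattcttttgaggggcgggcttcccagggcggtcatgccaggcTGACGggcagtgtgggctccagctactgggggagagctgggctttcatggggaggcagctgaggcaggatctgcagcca
Rgs4, chr13:84475835-84476134, minus strand: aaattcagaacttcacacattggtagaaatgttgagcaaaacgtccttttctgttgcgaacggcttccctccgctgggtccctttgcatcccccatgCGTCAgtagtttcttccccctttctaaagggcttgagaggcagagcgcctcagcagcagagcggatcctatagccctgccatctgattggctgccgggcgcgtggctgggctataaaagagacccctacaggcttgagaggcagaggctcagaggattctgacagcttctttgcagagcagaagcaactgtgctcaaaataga

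The short element began 216 bases before the start in Rgs2, 153 before it in Rgs4 and 29 before it in Rgs3. Rgs2 rose while Rgs3 and Rgs4 fell, so a short element stood in promoters of genes that moved either way. Promoters were found for 48 of the 60 member genes. Of these 14 (29.2%) held a short element, beside 21.2% of all 33469 promoters of this length. Among members called at 60 min, promoters were found for 5 of the 8 that rose and 7 of the 8 that fell. A short element was in 1 of those 5 (20.0%) and 2 of those 7 (28.6%). For Adrb3, Gnb3, Pde6c and Pde9a no promoter was found, so they were not searched. The palindrome was present in 1 of the 48 (2.08%, against 1.83% of all promoters), that of the anchoring protein gene Akap17a, which was 0.27 lower at 60 min without passing (adjusted p = 0.392 with limma). A match in these letters is a description of the window only.

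Adrb3, the beta receptor best known for driving lipolysis in fat cells, measured 5.45 and 5.59 in the saline rats, then 5.72, 5.78 and 6.62 at 10, 30 and 60 min. The 60 min rat lay well above the other arrays, which were within a narrow range. Its rise was 1.10 ± 0.21 (SE), or 2.15-fold (adjusted p = 0.0306 with limma), and 0.59 in the authors' processed values. Of 11 tested adipocyte markers, 7 were called lower at 60 min and none higher, although Cidea was 0.79 above the controls without passing. The median difference of these markers was -1.16. Their summed level was 8409 to 8560 in the controls and 5055, 7538 and 3103 at 10, 30 and 60 min. Adipoq, Retn and Pparg were not above background at 60 min. The part of fat content in the Adrb3 values was not tested. Adrb1 was not above background on any array.

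Among genes that silence the occupied receptor, 1 of 4 tested passed at 60 min, beside 24.4% of all tested probes. Grk4, a receptor kinase, measured 6.34 and 6.24 in the saline rats, then 5.93, 5.85 and 5.32 at 10, 30 and 60 min. Every isoproterenol rat was below both controls, and it fell by 0.97 ± 0.21 (SE), or 1.96-fold (adjusted p = 0.0348 with limma), a call lost without background correction and in the authors' processed values. Grk2, the kinase that classically phosphorylates beta receptors, measured 5.05 and 5.32 in the saline rats, then 5.53, 5.75 and 5.70. It was above both controls in all 3 isoproterenol rats, and not above background in control 1, but by only 0.51 ± 0.23 (SE) at 60 min (adjusted p = 0.162 with limma). Grk6 was level with the controls (a difference of -0.001 ± 0.23, SE), and Arrb2, the beta-arrestin gene, was above background on 2 arrays. Arrb1, Grk1, Grk3 and Grk5 were not above background on any array.

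None of the G alpha probes passed, and the stimulatory subunit could not be followed. Both probes for Gnas, the gene of that subunit, were below background on all 5 arrays. The inhibitory subunit genes lay on opposite sides of the controls at 60 min. Gnai3 measured 9.69 and 9.87 in the saline rats, then 9.79, 10.03 and 10.46, while Gnai2 stood at 11.50 and 11.52 and then at 11.29, 11.19 and 10.99. At 60 min Gnai3 was thus 0.68 ± 0.21 (SE) higher and Gnai2 0.52 below the controls (adjusted p = 0.0779 and 0.123 with limma). Gnai3 passed with the offset of 50, without background correction, with an intensity trend and in the authors' processed values (adjusted p between 0.0340 and 0.0416 with limma).

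Beta and gamma subunits pair and carry signals of their own. With the main processing, their genes held the member with the largest rise at 60 min and the one with the largest fall. Gnb3, a beta subunit gene, measured 4.49 and 5.47 in the saline rats, then 4.76, 6.23 and 6.99 at 10, 30 and 60 min. It was not above background in control 1 or at 10 min. The rise at 60 min was 2.02 ± 0.43 (SE), or 4.05-fold (adjusted p = 0.0353 with limma). For this dim probe the difference was 1.53 against control 2 alone, 2.50 against control 1 alone, and 1.07 in the authors' processed values. Gng10 measured 7.98 and 8.38 in the saline rats, then 8.09, 8.53 and 9.35, and rose by 1.18 ± 0.26 (SE). In the authors' processed values its rise was 1.06, close to that of Gnb3, so the rank of Gnb3 depends on the processing.

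Gng11, a gamma subunit gene with high expression in vessel walls, measured 9.69 and 9.81 in the saline rats, then 9.61, 8.89 and 7.86 at 10, 30 and 60 min. The 10 min rat was just below the controls and the later rats far below. Gng11 fell by 1.90 ± 0.21 (SE) at 60 min, or 3.72-fold (adjusted p = 0.0281 with limma). Endothelial and fibroblast markers had fallen in 7 of 8 tested genes at 60 min, with none higher, and Vwf was the marker not above background there. Their summed level, which includes collagen genes, was 20902 to 21823 in the controls and 5339, 8187 and 6400 at 10, 30 and 60 min. Vwf, the only endothelial marker among the 8 tested, measured 6.7 and 7.2 in the controls and 5.5, 6.2 and 5.1 at these times. The part of vessel and connective tissue content in the Gng11 values was not tested.

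The remaining beta and gamma probes did not pass. Gnb1 was 0.74 lower at 60 min (adjusted p = 0.0618 with limma) and Gng13, known from taste and olfactory cells, 0.99 lower (adjusted p = 0.0732 with limma). Gnb1 passed with the offset of 50, without background correction, with an intensity trend and in the authors' processed values. Gnb5 was above background at 30 and 60 min only and at least 1.28-fold higher at 60 min, and entered the tests through those arrays. Gnb2, Gng7 and Gng12 differed by between -0.40 and 0.08. Gnb4 and Gng8 were not above background on any array.

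No adenylyl cyclase gene passed at any time. At 60 min 5 of the 6 tested had a fitted value below the control mean, beside 34 of the 60 member genes, which include them. Their median was -0.51, beside -0.08 over all tested probes. The share of all tested probes below the control mean was not taken, so the count is no result about the cyclases. Adcy3 came nearest to the threshold, at 5.22 and 5.27 in the saline rats, then 4.94, 4.56 and 4.47 at 10, 30 and 60 min. It was above background in the controls only and entered the tests through them, so its fitted difference (adjusted p = 0.0530 with limma) is not independent of that selection. As a bound, it was at least 1.10-fold lower at 60 min. Adcy8, a cyclase stimulated by calcium, measured 7.05 and 7.31 in the saline rats, then 7.26, 6.42 and 6.66. The later rats lay below both controls, by 0.77 at 30 min and 0.52 at 60 min (adjusted p = 0.210 and 0.156 with limma).

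Adcy4, of the group stimulated by G beta gamma, measured 7.28 and 6.81 in the saline rats, then 6.87, 6.42 and 6.54 in turn. Adcy2, of the same group, stood at 6.76 and 6.12 and then at 5.59, 6.38 and 5.89, so its 30 min value fell between the controls. The cyclase inhibited by calcium, Adcy5, measured 5.56 and 5.25 in the saline rats and was not above background at 60 min. It was there at least 1.23-fold below the control mean (adjusted p = 0.234 with limma). The soluble cyclase gene Adcy10 was above background in control 2 and at 30 min only. Adcy1, Adcy6 and Adcy7 were not above background on any array.

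Protein kinase A genes gave no call at any time with limma. Prkaca, the gene of the main catalytic subunit, measured 9.81 and 9.89 in the saline rats, then 9.73, 9.72 and 9.11 at 10, 30 and 60 min. Its 60 min value was 0.74 ± 0.21 (SE) below the controls (adjusted p = 0.0591 with limma). The regulatory subunit gene Prkar1a measured 9.38 and 9.64 in the saline rats, then 9.46, 10.14 and 10.18, which put the 30 and 60 min rats above both controls. Its 60 min difference was 0.67 ± 0.23 (SE, adjusted p = 0.0918 with limma). Both passed without background correction and in the authors' processed values (adjusted p between 0.0257 and 0.0494 with limma), and Prkaca also with the offset of 50 and with an intensity trend.

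Prkacb, the other catalytic subunit gene, stood within 0.03 of the control mean at 60 min. Prkar2b, a regulatory subunit gene abundant in fat and brain, was 0.44 higher at 10 min and 0.19 higher at 60 min, neither past the threshold. Prkar2a was not above background on any array.

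Of 8 tested anchoring protein probes, a pair of them for Akap9, 7 lay below the control mean at 60 min, beside 34 of the 60 member genes. Their median was -0.61, beside -0.08 over all tested probes, and 1 was called, beside 24.4% of all tested probes. The 60 genes include the anchoring proteins, and the share of all tested probes below the control mean was not taken. The count by sign is therefore no result about them. Akap5, whose product holds protein kinase A, protein kinase C and calcineurin at the membrane, measured 5.63 and 5.84 in the saline rats, then 5.85, 5.41 and 4.65 at 10, 30 and 60 min. The 60 min value was not above background, so Akap5 was at least 1.54-fold lower (adjusted p = 0.0319 with limma). The call was lost with the offset of 50, without background correction and in the authors' processed values. Akap9, which encodes a scaffold of the centrosome and Golgi, had a pair of tested probes, 0.64 and 0.73 lower at 60 min (adjusted p = 0.0797 and 0.0949 with limma). The brighter Akap9 probe passed with the offset of 50, without background correction, with an intensity trend and in the authors' processed values.

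Akap13, a further anchoring protein gene, was 0.65 lower (adjusted p = 0.0861 with limma). Akap8, a nuclear anchoring protein, and its relative Akap8l were 0.39 and 0.57 lower. Akap12 was the exception in sign, 0.25 above the controls (adjusted p = 0.436 with limma).

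Of the Rapgef genes, which encode activators of Rap, Rapgef3 fell and Rapgef2 did not pass. Rapgef3 encodes Epac1, a cAMP receptor that works without protein kinase A. It measured 9.79 and 9.80 in the saline rats, then 9.60, 9.39 and 8.75 at 10, 30 and 60 min, all 3 below controls that nearly coincided. The fall at 60 min was 1.04 ± 0.20 (SE), or 2.06-fold (adjusted p = 0.0308 with limma). Rapgef2 was 0.03 from the control mean at 60 min, and Rapgef4 and Rapgef6 were not above background on any array.

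Among the phosphodiesterase genes, taken by symbol, 2 of 15 rose and 1 fell, beside 13.0% and 11.4% of all tested probes. The 3 were among the 4 tested genes of cGMP-specific enzymes (Pde5a, Pde6a, Pde6c and Pde9a), and the difference from the other phosphodiesterases was not tested. Pde5a measured 5.09 and 5.65 in the saline rats, then 5.30, 5.90 and 6.56 at 10, 30 and 60 min. The 10 min rat lay between the controls and the other rats above them. Pde5a rose by 1.19 ± 0.30 (SE), or 2.29-fold (adjusted p = 0.0472 with limma), a call lost in the authors' processed values (0.61). Pde6c, known as the cone photoreceptor enzyme, measured 5.17 and 5.60 in the saline rats, then 5.62, 6.14 and 6.62. It rose by 1.23 ± 0.26 (SE), or 2.35-fold (adjusted p = 0.0349 with limma), and by 0.64 in the authors' processed values.

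Pde9a, the cGMP enzyme of highest affinity, measured 5.97 and 5.76 in the saline rats, then 5.76, 5.60 and 4.65 at 10, 30 and 60 min. Only the 60 min rat stood apart, and the probe was not above background there, so Pde9a was at least 1.69-fold lower (adjusted p = 0.0294 with limma). The call was lost in the authors' processed values.

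Of the 5 tested genes of cAMP-specific enzymes (Pde4a, Pde4b, Pde4d, Pde7a and Pde8a) none passed with limma. Pde4b measured 6.35 and 6.24 in the saline rats, then 6.53, 6.75 and 6.25 at 10, 30 and 60 min. It was above both controls at 10 and 30 min, by 0.24 and 0.46, and back at their level at 60 min (adjusted p = 0.296 at 30 min and 0.909 at 60 min with limma). Pde4d differed by 0.19 at 60 min, Pde7a by -0.20 and Pde4a by -0.51 (adjusted p = 0.178 with limma). Pde8a was above background at 30 and 60 min only, through which it entered the tests, and was at least 1.27-fold higher at 60 min.

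Enzymes that act on both nucleotides gave no call either. Pde3a measured 4.88 and 4.79 in the saline rats, then 5.17, 4.78 and 5.53, above background at 10 and 60 min only. It entered the tests through those arrays and was at least 1.39-fold higher at 60 min. Pde3b, the isoform of insulin action in fat cells, was within 0.01 of the control mean. Pde2a measured 6.01 and 5.46 in the saline rats and was not above background at 60 min. It was there at least 1.54-fold below the control mean (adjusted p = 0.0758 with limma), and Pde10a was 0.29 lower. Outside that group, and counted here by symbol alone, Pde6h was 0.26 higher and Pde6d 0.29 lower, neither past the threshold. Pde6a was above background at 60 min only and entered the tests through that array, and it was at least 1.10-fold higher there. Pde1a, Pde1b, Pde1c, Pde4c, Pde6b, Pde7b, Pde8b and Pde11a were not above background on any array.

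**Figure D5:**
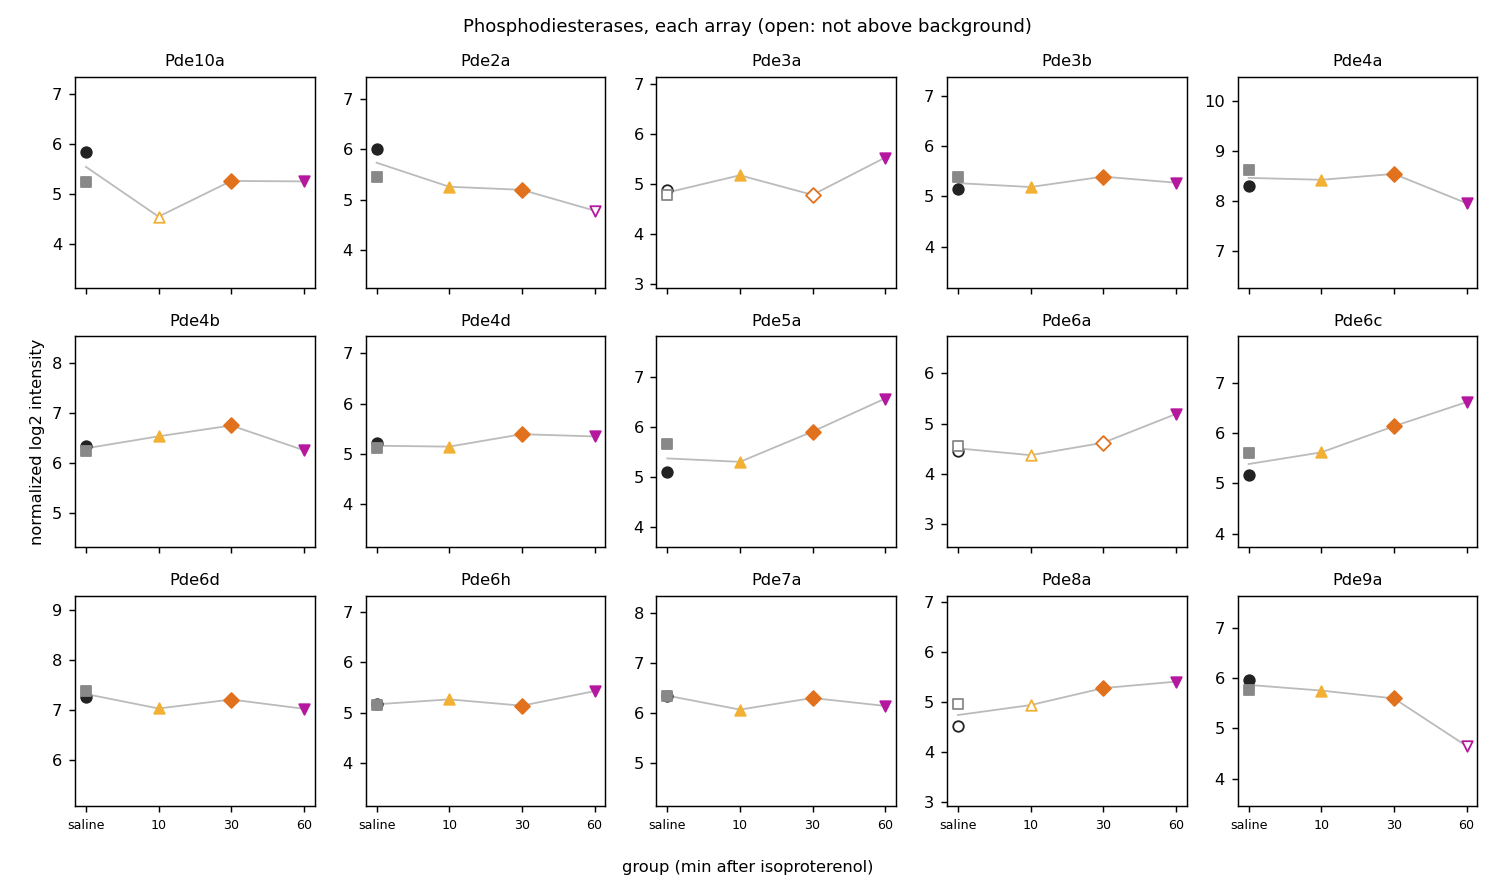
Normalized log2 intensity (y axis) of the 15 tested phosphodiesterase probes in the saline rats (circle, control 1, and square, control 2) and at 10, 30 and 60 min (x axis, evenly spaced), with 1 symbol per rat and open symbols where the probe was not above background. The grey line joins the control mean to the isoproterenol rats. Pde5a and Pde6c are highest and Pde9a lowest at 60 min, while Pde4b is highest at 30 min.

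Crtc2, the only CREB coactivator gene of its family tested, measured 9.08 and 8.99 in the saline rats, then 9.11, 9.31 and 9.52 at 10, 30 and 60 min. Each isoproterenol rat was above both controls, though by only 0.49 ± 0.21 (SE) at 60 min (adjusted p = 0.146 with limma).

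Other genes of the pathway were taken from a list of 54 symbols, of which 30 were tested. At 60 min 8 of the 30 rose and 3 fell, while 13.0% of all tested probes rose and 11.4% fell. The median difference of the 30 was -0.07. The list was chosen with earlier results of these data known and takes the brightest probe of each gene. Its counts are therefore no test of the pathway. Sik1, a kinase that phosphorylates Crtc proteins, measured 7.05 and 7.59 in the saline rats, then 7.01, 9.55 and 10.71 at 10, 30 and 60 min, a rise of 3.39 ± 0.29 (SE) or 10.5-fold (adjusted p = 0.0281 with limma). The later rats were far above the controls and the 10 min rat was level with control 1. Crem, a cAMP-responsive regulator gene, measured 5.45 and 7.56 in the saline rats, then 5.47, 9.37 and 11.61, and rose by 5.10 ± 0.85 (SE) from controls that lay far apart. Gnal, a relative of Gnas that also stimulates adenylyl cyclase, measured 5.32 and 6.10 in the saline rats, then 5.76, 6.63 and 7.92, a 4.63-fold rise.

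The alpha1 receptor gene Adra1a measured 6.58 and 7.51 in the saline rats, then 7.38, 8.31 and 9.36 in turn. It rose 4.99-fold by 60 min. Cap1 (2.29-fold), the somatostatin receptor gene Sstr2 (2.33-fold) and Atf1 (1.89-fold) rose as well, and Arrdc3, an arrestin domain gene above background at 60 min only, was at least 1.27-fold higher. Arrdc3 entered the tests through that array alone, so its place among the 8 is not independent of the selection. Pkig, an inhibitor of protein kinase A, fell from 9.70 and 9.58 in the controls to 8.60 at 60 min, or 2.05-fold (adjusted p = 0.0314 with limma). Gna11, a Gq class gene, fell 1.95-fold, and the adenosine receptor gene Adora2a, not above background at 60 min, was at least 1.66-fold lower (adjusted p = 0.04995 with limma).

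At 10 and 30 min no member passed with limma, against 0.0278% and 0.0% of all tested probes. Unadjusted p-values under 0.05 were found for 4 members at 10 min (6.56%, against 6.07% of all probes) and 13 at 30 min (21.3% against 19.8%). By size alone, meaning at least 1 from the control mean and outside the controls, the numbers were 0 at 10 min (2.19% of all probes), 5 at 30 min (8.2% against 6.75%) and 15 at 60 min (24.6% against 21.0%). The 5 at 30 min were Rgs2 (1.92), Gnb3 (1.25), Rgs19 (1.03), Rgs4 (-1.28) and Rgs10 (-1.07). All but Rgs2 dropped from this count without background correction, with the offset of 50 and in the authors' processed values. The 3 comparisons with control share the same 2 control rats.

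Directly compared, the 60 and 10 min rats differed in no member past the limma threshold (0.0% of all probes passed, and the lowest adjusted p of a member was 0.0649). An unadjusted p under 0.05 was found for 21 members (34.4%, against 33.3% of all probes). The largest differences were 2.23 for Gnb3, -1.75 for Gng11 and -1.73 for Rgs3. Gng11 and Rgs3 passed with the offset of 50, with an intensity trend, without background correction and in the authors' processed values. With all 3 isoproterenol rats as 1 group against the 2 controls, no member passed with limma (0.0% of all probes, lowest adjusted p = 0.500), and 7 had an unadjusted p under 0.05 (11.5% against 9.41%). In that comparison Rgs2 was 1.35 ± 0.36 (SE) higher and Rgs4 1.28 ± 0.34 (SE) lower, each on the same side of both controls in 3 of 3 rats.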

How the data were processed

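Total RNA of 5 parotid glands was amplified to biotin-labelled cRNA and hybridised to Illumina bead arrays, per the labels. The authors deposited linear intensities with a detection p-value per probe and array, and a table of processed log2 values. The processed values have a median of 6.0 on each array, are not centred by gene, and their exact transform is unknown. Sorted intensities nearly coincide across the deposited arrays, and no background had been subtracted. Their software is not given in the sources used here. Probe symbols came from the platform annotation (0 probes with several symbols, and all 105 probes of the family symbols matched an Entrez identifier of GRCr8).

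Intensities were corrected with normexp from the detection p-values (offset 16), quantile normalized and log2 transformed (neqc, limma 3.58.1, R 4.3.3). Of 22517 probes, 10793 with a detection p-value under 0.01 on at least 1 array were tested. lmFit and eBayes were fitted with 1 mean per group over all 5 arrays (1 residual degree of freedom from the controls, 3.88 prior degrees of freedom, prior SD 0.186), so each lone rat was assumed to vary as the controls did. A fit of 2 groups had 3 residual degrees of freedom. Two-sided p-values were adjusted by Benjamini-Hochberg at 0.05 over all tested probes. Offsets and background shrink the differences of dim probes. The fit was tested on simulated data. At a single time, p-values rest on the spread between the 2 control rats. A difference with 1 side not above background is given in the text as a bound against the lowest probe above background on that array. The bound is taken with the mean of the controls and leaves out the spread between them. Against 1 control alone it can be smaller. The members and lists were chosen with earlier results of these data known. Named were members past a threshold, the 3 largest differences of each role at 60 min, members past the rule of size at 10 or 30 min, core genes of the cascade, and other pathway genes past the threshold. The number of arrays limits the precision. Alternatives were another offset, no background correction, median scaling, the deposited log2 values, other filters, robust and trended priors, and leaving out arrays. Versions were Python 3.11.15, pandas 2.3.3 and matplotlib 3.10.9.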

Additional observations from a re-analysis of the deposited data

How the results depend on the processing

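Median scaling, a robust prior variance, an intensity trend and detection on 2 arrays kept all 16 calls at 60 min. The offset of 50 kept 15, no background correction 14 and the authors' processed values 12. Without the filter on dim probes 0 members and 0.0% of all probes passed at 60 min. That setting adds 11724 probes to the adjustment and to the estimate of the prior variance. At 30 min 1 member (Rgs2) passed with an intensity trend, beside 0.0741% of all probes. Between 60 and 10 min, 4 members passed in the authors' processed values, 2 with an intensity trend, 7 without background correction and 2 with the offset of 50. In these settings 7.9%, 1.92%, 12.0% and 7.15% of all probes passed, so these counts are no result about the members. The pooled comparison gave 0 calls under every alternative, including without each array in turn. By size, 1 member at 30 min passed without background correction, with the offset of 50 and in the authors' values, and 8, 9 and 8 at 60 min. The shares of all probes were 2.16%, 2.7% and 2.15% at 30 min and 10.5%, 12.3% and 10.1% at 60 min. Leaving out a control in turn gave 0 to 2 members by size at 10 min, 3 to 6 at 30 min and 13 to 17 at 60 min. The shares of all probes were 1.84% to 3.78%, 3.86% to 10.9% and 18.1% to 25.0%. The higher number came each time without control 2. No call changed its direction. Single uncalled members were followed at 60 min only if they met the rule for naming. Among these, leaving out control 1 turned the sign of Adcy10 (0.09 to -0.29), Arrb2 (0.16 to -0.21), Pde3b (0.01 to -0.12) and Pde4b (-0.04 to 0.02). Leaving out control 2 turned that of Rapgef2 (0.03 to -0.12). The 60 min values of Grk6, Gng12, Pde10a and Rgs9bp, outside that rule, also lay between the controls, so their sign too depends on the control used. The 60 min median over the member genes was -0.14, and lay between -0.22 and -0.06 under the alternatives. The 10 min median over the member genes was -0.07, -0.16 without control 1 and 0.02 without control 2. Leaving out a control leaves no residual degrees of freedom at a single time, so these are values with no test. No paired analysis was possible because the isoproterenol groups hold 1 rat each and share fewer than 2 replicate numbers with the controls. Members near background limit what can be read, since 43 of 61 were above it on all 5 arrays.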
